A study of Homo sapiens with 6 samples.

Results

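The MYC region studied here was the stretch of chromosome 8 from position 127400001 to 130920000 (hg19), which holds MYC, PVT1, POU5F1B and GSDMC. Its members were chosen by position, as every 40 kb bin of that stretch, which gave 88 of the 64935 bins in the contact maps. Contacts were measured by Hi-C, in which crosslinked chromatin is cut, ligated and sequenced so that each read pair joins a pair of positions in the genome. The cells were LNCaP, an established prostate cancer cell line, cut with BglII. Control siRNA cells received 20 nM of a non-targeting siRNA pool, and CTCF siRNA cells received 20 nM of a pool against CTCF, in both cases with a repeat transfection and collection at 144 h. The libraries of each condition had been pooled into 1 map, 2 libraries for control siRNA and 4 for CTCF siRNA, and some of the 4 carry version numbers of a replicate that the labels do not explain. No difference below could therefore be set against the spread between replicates, and all intervals and SDs cover counting error only.

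MYC encodes a transcription factor that drives growth and proliferation and is often overexpressed in cancer. The gene lies in a wide stretch poor in protein-coding genes, where risk variants for prostate and other cancers and many enhancers lie upstream, around the retrogene POU5F1B, and where the non-coding RNA gene PVT1 follows downstream. CTCF is a DNA-binding protein that, with cohesin, anchors chromatin loops and marks many borders of topologically associating domains (TADs), stretches whose parts contact each other more often than they contact their surroundings. Contacts of the MYC bin with both sides and the borders between them were compared to ask how the folding of the region differed once CTCF was depleted.

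The sequences of the CTCF pool define the treatment and are given as the labels list them, 5′ to 3′.
CTCF siRNA 1: gaugaagacugaaguaaug
CTCF siRNA 2: ggagaaagaagaagagua
CTCF siRNA 3: gaagaugccugccacuuac
CTCF siRNA 4: gaacagcccauaaacauag
The sequences 1, 3 and 4 matched 11 of 17 annotated CTCF transcripts exactly and no transcript of another gene. The sequence 2, listed with 18 nt where the others have 19, matched none of the 254413 transcripts searched. No transcript of MYC, PVT1, POU5F1B or GSDMC held an exact match to any of the 4. The level of CTCF itself was not measured in these maps.

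The bins used held 16587066 read pairs in control siRNA and 56207891 in CTCF siRNA. A bin of the region had a median of 427.5 contacts within chromosome 8 in control siRNA (at most 765) and 1566 in CTCF siRNA (at most 4247). The share of the region's contacts that stayed on chromosome 8 came to 57.0% for control siRNA, with a Wilson 95% interval of 56.6 to 57.4%, where chromosome 8 as a whole had 56.0%. For CTCF siRNA it came to 67.4% (67.2 to 67.6%), and to 64.6% on chromosome 8 as a whole. Counts were summed over bins, so a contact between bins of the region entered at both of its ends. The Wilson intervals do not allow for this and are too narrow. The MYC bin, 128720001 to 128760000, held 314 such contacts in control, 0.813 times the chromosome 8 median, and 1512 in CTCF siRNA, 1.24 times that median. Bins of PVT1 had a median of 1.004 times the chromosome median in control and 1.92 times in CTCF siRNA, and the LRATD2 bin 1.15 and 2.43 times. GC content was 45.0% in the MYC bin and 36.5 to 48.2% across the region, with a chromosome 8 median of 38.5%. Since coverage differed between the maps in this way, observed contacts were divided by the number expected from distance and, except for insulation, from a bias factor for each bin. Values without bias factors are given where they change a call or turn the sign of a window.

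Both TAD lists placed a border at MYC, and the CTCF siRNA list had 1 additional border, within PVT1. In control siRNA the region was covered by TADs from 126.70 to 127.82, 127.82 to 128.70, 128.74 to 130.74 and 130.78 to 131.70 Mb. In CTCF siRNA they ran from 126.66 to 127.82, 127.82 to 128.74, 128.74 to 129.02, 129.02 to 130.74 and 130.74 to 132.98 Mb. MYC, at 128747680 to 128755197 on the plus strand, and all of PVT1, at 128806772 to 129199347, lay by position in the same control TAD of 2000 kb, longer than 93.2% of the 2864 control TADs. In CTCF siRNA this stretch was listed as a TAD of 280 kb, with MYC and the 5′ part of PVT1, and a TAD of 1720 kb. POU5F1B, at 128334428 to 128432311, lay in the TAD upstream of MYC in both lists.

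Of the 3 control boundaries in the region, 3 had a CTCF siRNA boundary within 40 kb, where 50.6% of 3475 control boundaries in the genome did. Of the 4 CTCF siRNA boundaries, 3 were shared, where 60.7% of 2893 did so. With so few boundaries these shares cannot be told from the background. The lists give edges at the centres of 40 kb bins, so that an edge could be placed in a bin but not in an exon or intron. The edge at 127.82 Mb lay in a bin of PCAT1, a prostate cancer-associated non-coding RNA. As annotated, PCAT1 runs from 127568568 to 128431295, over 22 bins that include those of LRATD2, PRNCR1 and POU5F1B. The edge at 128.74 Mb lay in the bin that holds MYC together with part of CASC11, a non-coding RNA gene on the minus strand that overlaps the start of MYC. The edge at 129.02 Mb, 300 kb from the nearest control boundary, lay in a bin within PVT1. At the far end both lists had an edge at 130.74 Mb, in the bin before GSDMC, a gasdermin gene. The next control TAD began at 130.78 Mb, in the GSDMC bin, and the next CTCF siRNA TAD at 130.74 Mb.

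Insulation was measured next, as the log2 ratio of contacts across a bin, over expected, to contacts within its flanks of 400 kb, over expected, so that a low value marks a border. Expected contacts here came from distance alone, without bias factors, except where stated. The border at 127.82 Mb nearly lost its low value in CTCF siRNA, although both lists kept a TAD edge there. The bin with this edge had 99 contacts across it in control against 384 expected, and 1178 in CTCF siRNA against 1441 expected. The insulation value there went from -2.0 to -0.20, a rise of 1.80 ± 0.16 (counting SD). Of 42416 autosomal bins, 16 rose by at least this amount, this bin included, and of 972 shared boundaries 4 did. On chromosome 8 it was 1 of 2416 bins. The bin before it rose by 1.01, and the bins that follow it, 127840001 to 127880000 and 127880001 to 127920000, by 1.79 and 1.38. All of these are in PCAT1. The size of the rise was 1.32 with flanks of 800 kb and 1.85 with bias factors.

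The border at MYC changed much less. The MYC bin had 242 contacts across it in control against 384 expected, and 1676 in CTCF siRNA against 1441 expected, both from distance alone. With bias factors, contacts between segments B and C, defined below and on either side of the MYC bin, stayed below expectation. They were at 0.814 in control and 0.815 in CTCF siRNA. The insulation value there went from -0.94 to -0.72, a change of 0.22 ± 0.11. The interval of this change included 0 with flanks of 200 kb, at 0.32 (-0.04 to 0.68), with flanks of 800 kb, at 0.11 (-0.02 to 0.24), and with bias factors, at 0.16 (-0.05 to 0.38). In both maps the MYC bin was among the 3 lowest minima of the region. Its change was smaller than the median of 0.37 over the 972 shared boundaries, and 12803 of 42416 autosomal bins rose by as much.

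Within PVT1 the insulation value was lower in CTCF siRNA, by little. At the additional edge, 129.02 Mb, it was -0.39 in control and -0.62 in CTCF siRNA, a change of -0.23 ± 0.10. With flanks of 200 kb its interval included 0, at -0.26 (-0.55 to 0.03). The median change over 662 gained boundaries was -0.10, and 248 of them fell by at least as much as this one. The lowest bin within PVT1, 129080001 to 129120000, was at -0.64 in the control map and -0.75 after CTCF siRNA, and a dip was thus present in both. At the far end, the GSDMC bin went from -1.49 to -0.84, a rise of 0.64 ± 0.14, and it was the second lowest minimum of the region in control and the lowest in CTCF siRNA.

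Along the region the insulation value was higher in CTCF siRNA in 38 bins and lower in 50. The median change was -0.08 over these bins and 0.02 over 42416 autosomal bins. Nearby bins share contacts, so no direction is read from this split. The rise was at least 0.5 in 7 bins, or 7.95%, where 13.0% of autosomal bins rose so far. These were 5 bins in PCAT1 around 127.82 Mb, the GSDMC bin and the bin before it. The fall was at least 0.5 in 2 bins, or 2.27%, against 3.66% of autosomal bins. They were the bin at 128120001 to 128160000, over PCAT1 and CASC19, with a change of -0.58, and the LRATD2 bin, with -0.51. The bin with PRNCR1 came next, at -0.48. The SD of the insulation value along the region was 0.60 in control and 0.33 in CTCF siRNA. No SD was computed for other stretches, so this difference is not read as particular to the region. Over the 972 shared boundaries the median value went from -1.09 in control to -0.66 in CTCF siRNA. Between the maps the Pearson r was 0.754 over the 88 bins of the region, which share contacts with their neighbours.

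**Figure D1:**
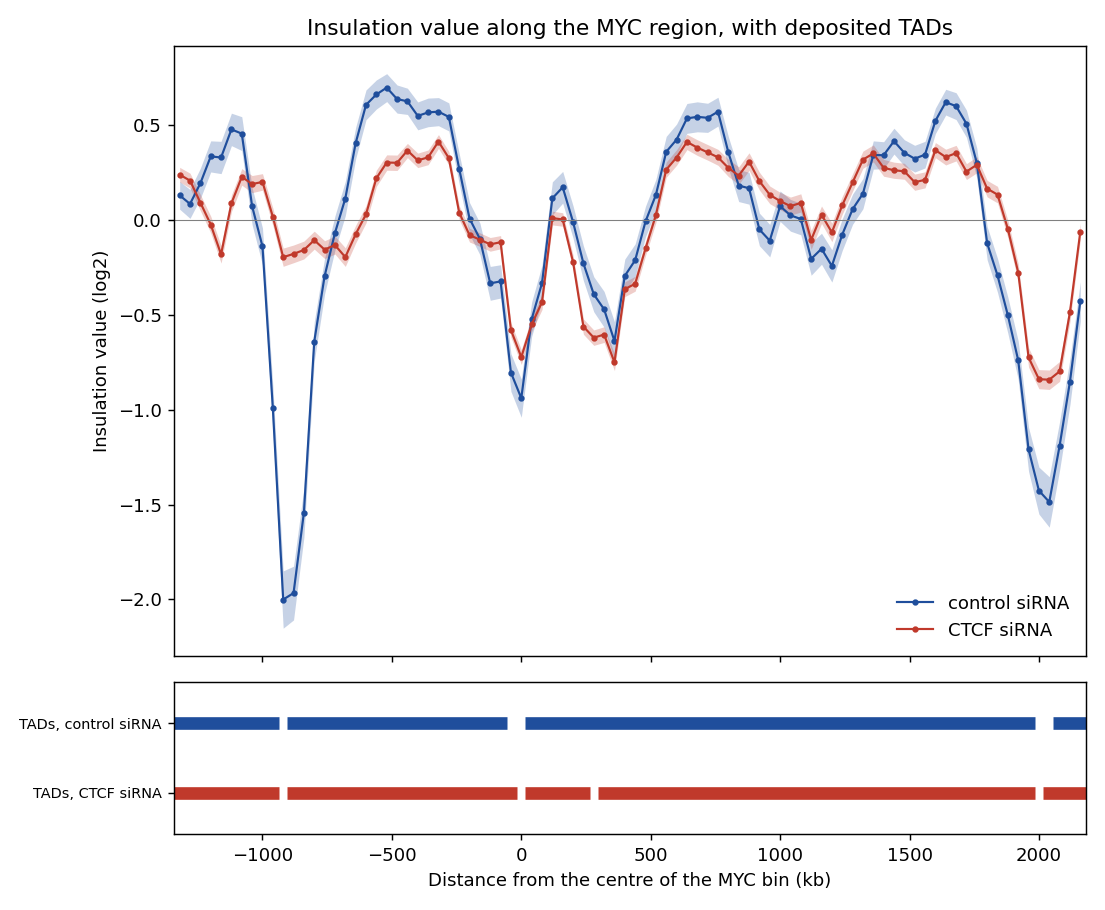
Insulation value (log2, upper panel) of each 40 kb bin against its distance from the centre of the MYC bin in kb, with bands of 1 counting SD, and the deposited TADs (lower panel, bars shortened by 15 kb at each end so that touching TADs can be told apart). The control minimum of -2.0 on the left was at -0.20 in CTCF siRNA, while the minimum at 0 kb, the MYC bin, was present in both maps at -0.94 and -0.72.

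Contacts of the MYC bin with the POU5F1B side were above expectation in both maps and did not differ detectably between them. In control siRNA the MYC bin had 74 contacts with the bins from 128000001 to 128600000 against 49.9 expected, an observed over expected of 1.48 (exact Poisson 95% interval 1.17 to 1.86). In CTCF siRNA it had 320 against 230 expected, or 1.39 (1.24 to 1.55). The fold of observed over expected between the maps was 0.936, with an exact conditional 95% interval of 0.725 to 1.22. On the log2 scale this was -0.09, and the sign was not stable, at 0.21 (-0.16 to 0.59) without bias factors and 0.06 (-0.15 to 0.29) with 1 bin on each side of the MYC bin. The same window of other autosomal bins had medians of 0.949 and 0.965, so the MYC bin lay at the 88.6th percentile in control and the 93.8th in CTCF siRNA. Single bins on this side held 2 to 13 contacts in control and 6 to 46 in CTCF siRNA. The bin at 128520001 to 128560000 was among the 3 partners with the highest observed over expected in both maps, at 1.78 (13 contacts) and 1.5 (46 contacts). It was compared among the 13 bins with at least 5 contacts expected in each map. The other bins so named were 128960001 to 129000000 and 128920001 to 128960000 in control, at 1.78 and 1.35 and both in PVT1. In CTCF siRNA they were 128480001 to 128520000, in CASC8, at 1.46 and 128880001 to 128920000, in PVT1, at 1.39. Between the maps the log2 values of these 13 bins had a Pearson r of 0.740, where all 13 share the MYC bin.

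Farther upstream, observed over expected of the MYC bin was also above 1 in both maps. With the LRATD2 side, 127400001 to 128000000, observed over expected of the MYC bin was 1.95 in control (29 contacts, 1.30 to 2.79) and 1.75 in CTCF siRNA (133 contacts, 1.47 to 2.07). The log2 change was -0.15, and 0.21 (-0.38 to 0.84) without bias factors. The single LRATD2 bin had 1 contact with the MYC bin in control against 0.841 expected, and 26 in CTCF siRNA against 6.59 expected, or 3.95 (2.58 to 5.78). The interval of the fold ran from 0.545 to 136, because the control count was so low, so that its size was not measurable at this depth. The interval of the log2 change excluded 0 without bias factors, at 2.76 (0.16 to 8.12), again from the 1 control contact. At this offset 0.158% of autosomal bins had an interval above 0. So few contacts were expected of single bins at this offset that the share does not measure how rare such a change was. Coverage of the LRATD2 bin, not corrected in this setting, was 1.15 times the chromosome 8 median in control and 2.43 times in CTCF siRNA. PRNCR1, a non-coding RNA gene of the prostate cancer risk stretch, had 5 contacts with the MYC bin in control, or 2.98 times expected (0.969 to 6.96), and 24 in CTCF siRNA, or 4.16 times (2.67 to 6.19). Over all bins of PCAT1 the values were 1.9 from 73 contacts and 1.64 from 286, and over those of CASC8 1.29 from 28 and 1.17 from 122. The bins of PCAT1 include the PRNCR1 bin and part of CASC8, so these values overlap. The 3 bins just upstream of the MYC bin were below expectation in both maps, at 0.589 (0.394 to 0.846) and 0.622 (0.532 to 0.723). Without bias factors they were higher in CTCF siRNA, by a log2 of 0.71 (0.13 to 1.33).

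On the downstream side, contacts of the MYC bin with PVT1 were near expectation in both maps. Its contacts with the window called beyond PVT1, which begins in the 3′ end of that gene, were lower in CTCF siRNA. With the PVT1 body, 128800001 to 129120000, the MYC bin had 72 contacts in control against 56.9 expected, or 1.26 (0.990 to 1.59), and 382 in CTCF siRNA against 350 expected, or 1.09 (0.984 to 1.21). The fold was 0.862 (0.669 to 1.13). Without bias factors its log2 was 0.54 (0.18 to 0.93), against -0.21 with them, so the sign of this difference depended on the correction for coverage, which was higher at MYC and PVT1 in CTCF siRNA. From 129120001 to 129800000, from the 3′ end of PVT1 into CCDC26, the MYC bin had 29 contacts in control against 28.2 expected, or 1.03 (0.688 to 1.48). In CTCF siRNA it had 62 against 126 expected, or 0.492 (0.378 to 0.631), a fold of 0.479 (0.304 to 0.773). This change lay at the 1.08th percentile of 41789 autosomal bins. With 1 bin on each side added to the MYC bin, its log2 was -0.37 in place of -1.06, and the interval, -0.76 to 0.03, included 0. The window's bins in PVT1, 129120001 to 129160000 and 129160001 to 129200000, were at 0.767 and 1.41 in control, from 2 and 4 contacts. In CTCF siRNA these bins were at 0.550 and 0.324, from 7 and 5 contacts.

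The start of CCDC26, from 130360001 to 130720000, also had a lower observed over expected with the MYC bin in CTCF siRNA. CCDC26 is a non-coding RNA gene on the minus strand. The counts were 9 in control against 3.59 expected, or 2.51 (1.15 to 4.76), and 12 in CTCF siRNA against 14.9 expected, or 0.805 (0.416 to 1.41), a fold of 0.321 (0.124 to 0.862). This change lay at the 3.49th percentile of 40449 autosomal bins. The middle of CCDC26 was at 0.914 and 0.988, and the GSDMC end at 2.03 from 3 contacts and 2.75 from 18. With 1 bin on each side of the MYC bin the log2 change of the GSDMC end turned from 0.43 to -0.87 (-1.78 to 0.13), and that of the middle of CCDC26 from 0.11 to -0.08 (-0.62 to 0.49). So 2 of 8 windows had an interval of the fold that excluded 1, both lower in CTCF siRNA. Without bias factors these 2 were again lower, where 24.7% and 5.64% of autosomal bins were, and 2 more, next to MYC and the PVT1 body, were higher, where 21.5% and 23.1% were. With 1 bin on each side of the MYC bin only the start of CCDC26 was lower, at a log2 of -0.89 (-1.57 to -0.18), as it was for 5.04% of autosomal bins. In this sense 11.0% of autosomal bins were lower in the window beyond PVT1 and 2.55% in that at the start of CCDC26. In the other windows, in genomic order, the shares were 7.29%, 13.2%, 8.37%, 11.8%, 5.18% and 1.44%. A list of other genes, which leaves out some annotated genes of the region such as LINC00824 and CASC19, gave 9 with a position. Of these 9, the interval lay below 1 for CCDC26, at a fold of 0.582 (0.360 to 0.969), and included 1 for the other 8. The interval for CCDC26 included 0 on the log2 scale without bias factors, at -0.69 (-1.39 to 0.04). Among these, LINC02912, within PVT1, was at 1.58 and 1.29 times expected, and MIR1208, near the 3′ end of PVT1, had 4 and 5 contacts against 2.85 and 15.4 expected. Of autosomal bins, 6.84% were lower in a window at the same offset as CCDC26.

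**Figure D2:**
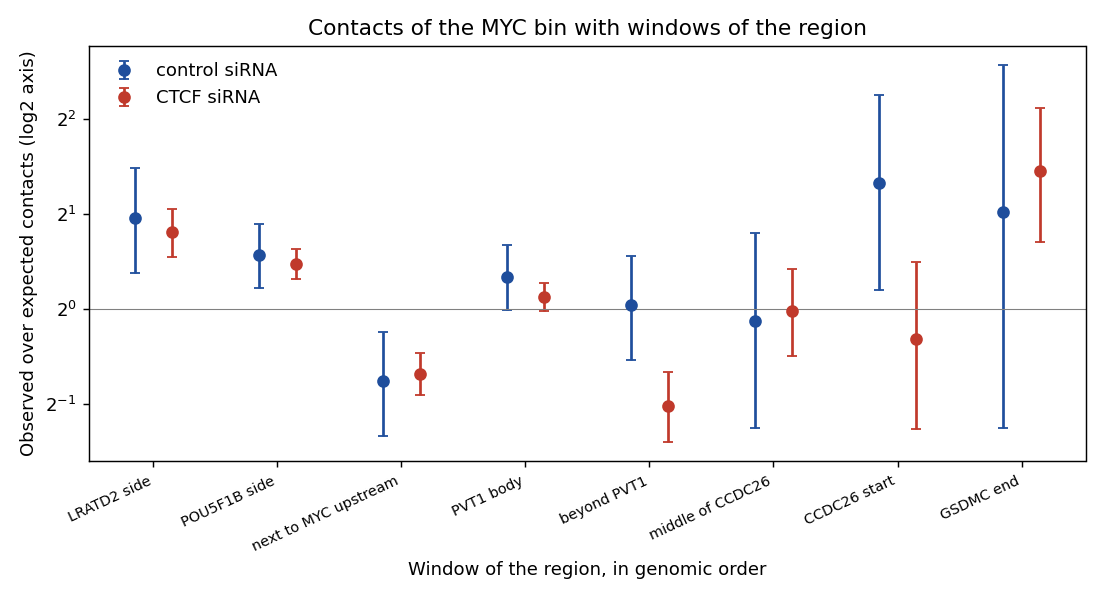
Observed over expected contacts of the MYC bin (log2 axis) with 8 windows of the region in genomic order, with exact Poisson 95% intervals for control siRNA and CTCF siRNA. The POU5F1B side was at 1.48 and 1.39, and the window beyond PVT1, which begins in the 3′ end of PVT1, at 1.03 and 0.492.

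Between the 4 genes themselves, the interval of the fold included 1 for all 6 pairs with bias factors, and for 4 of 6 without them. With bias factors it excluded 1 for 14.2% of such pairs placed elsewhere on the autosomes. MYC and POU5F1B had 14 contacts in control, or 1.40 times expected (0.767 to 2.35), and 50 in CTCF siRNA, or 1.09 times (0.811 to 1.44). MYC and PVT1 had 78 and 394 contacts, at 1.25 (0.988 to 1.56) and 1.04 (0.941 to 1.15). The log2 change of this pair was -0.26 with bias factors and 0.46 (0.11 to 0.83) without them, where 23.9% of placements were higher. POU5F1B and PVT1, which lie on either side of the border at MYC, were below expectation in both maps, at 0.678 (54 contacts, 0.509 to 0.884) and 0.743 (333 contacts, 0.665 to 0.827). The log2 change of this pair was 0.68 (0.26 to 1.12) without bias factors, where 30.9% of placements were higher. Pairs with GSDMC rested on 1 to 8 contacts in control. With 1 bin added on each side of both genes, POU5F1B with GSDMC had a log2 change of -1.54 (-2.42 to -0.64). This pair was thus lower in CTCF siRNA, as at 2.27% of placements, and the intervals of the other 5 pairs included 0. Few contacts are expected at this distance, so this share does not measure how rare such a change was. The 14.2% above includes pairs with GSDMC and has the same limit. PVT1 with GSDMC had 8 and 25 contacts, at 1.63 and 1.21 times expected.

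The region was then divided at the CTCF siRNA borders into 5 segments, chosen after the TAD lists had been seen. Segment A, 127400001 to 127800000, holds LRATD2, and B, 127840001 to 128720000, holds POU5F1B. Segment C, 128760001 to 129000000, holds the 5′ part of PVT1, and D, 129040001 to 130720000, holds its 3′ part and CCDC26. Segment E, 130760001 to 130920000, holds GSDMC. The greatest rise was between A and B, across the edge at 127.82 Mb. These segments shared 221 contacts in control against 584 expected, or 0.379 (0.330 to 0.432), and 2213 in CTCF siRNA against 2528 expected, or 0.875 (0.839 to 0.913), a fold of 2.31 (2.01 to 2.67). The same pair of segments was placed at 10259 other autosomal positions, overlapping and in steps of 160 kb. Of these, 25 rose by as much, and 32.1% had an interval above 1. The split between A and B follows a listed edge at the lowest control insulation value of the region. A low control value, and with it a rise, was thus favoured by the choice. The placements were not chosen at edges, so their share is a description. At the 972 shared boundaries the median insulation change was 0.37. From the LRATD2 bin alone, contacts with segment B went from 0.629 to 1.21 times expected, a fold of 1.92 (1.35 to 2.82), and 17.1% of autosomal bins were higher at the same offset.

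The difference between B and C, across the border at MYC, depended on the bias factors. With them these contacts were at 0.814 in control (354 contacts, 0.732 to 0.904) and 0.815 in CTCF siRNA (2234 contacts, 0.781 to 0.849), with a fold of 1.0 (0.894 to 1.12). The log2 of this fold was 0.74 (0.58 to 0.91) without bias factors. Contacts of B with D, which skip the 5′ part of PVT1, fell from 1.18 (1.1 to 1.26) to 0.717 (0.687 to 0.747), a fold of 0.608 (0.562 to 0.659). Of 10305 placements 25 fell by as much, and 26.7% had an interval below 1. Without bias factors the log2 of this fold was -0.52, against -0.72 with them. The intervals of the MYC bin beyond PVT1 and at the start of CCDC26, both in D, held 0.608. A lower value with these stretches was thus not particular to the MYC bin. Segments C and D, on either side of the additional edge within PVT1, went from 0.899 to 0.731, a fold of 0.814 (0.738 to 0.899). This split follows an edge listed in the CTCF siRNA map alone, so that a lower value across it there was favoured by the choice, and the value is a description. Of placements not chosen at such edges, 27.6% were lower. Without bias factors the difference between C and D had the other sign, at 0.31 (0.16 to 0.45) on the log2 scale.

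Observed over expected between the outer segments was lower in CTCF siRNA, from values well above 1 in control. A with D went from 2.36 (2.12 to 2.62) to 1.37 (1.28 to 1.47), A with E from 3.46 (2.26 to 5.07, 26 contacts) to 1.30 (0.919 to 1.80, 37 contacts), and B with E from 2.51 (1.91 to 3.23) to 1.15 (0.941 to 1.39). The shares of placements with an interval below 1 were 13.7%, 2.31% and 4.94%. Only 7.51 contacts were expected in control for A with E, so its share does not measure how rare the fall was. Of 10164 placements of A with E, 290 fell by as much. Within segments, A with A went from 1.05 to 0.859 and B with B from 1.21 to 1.08, where 23.2% and 31.1% of placements were lower, and without bias factors both differences had the other sign, with intervals that included 0. D with D was at 1.06 and 1.05. In all, with bias factors and with C and D included, 1 of 15 pairs of segments was higher, 7 were lower, and for 7 the interval included 1. Without them 5 were higher, 5 were lower, and for 5 the interval included 1. The 5 higher were A with B, A with C, B with C, C with C and C with D, 4 of them with the 5′ part of PVT1. The pairs lower in both settings were A with D, A with E, B with D and B with E. Over all pairs and placements elsewhere, 18.6% were higher and 19.5% lower with bias factors, and 30.5% and 36.4% without them.

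**Figure D3:**
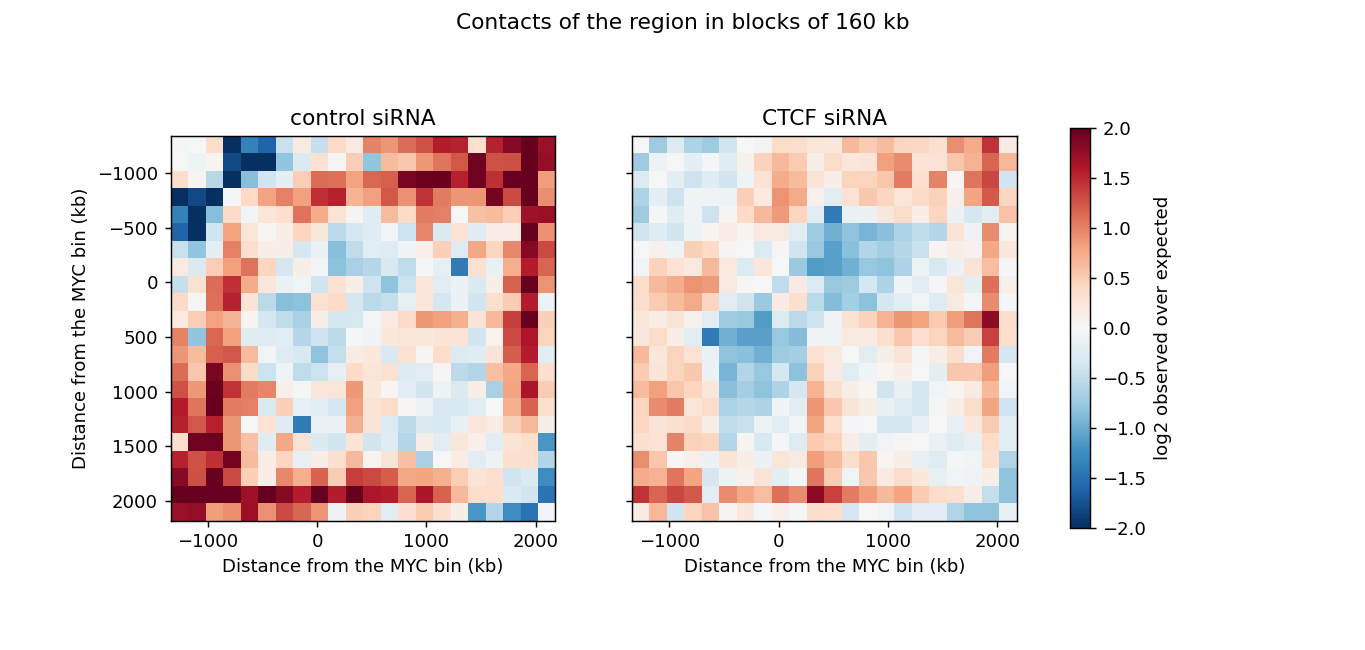
Contacts of the region in blocks of 160 kb as log2 of observed over expected (colour, cut at -2 and 2, with 0.5 added to observed and expected), by distance from the MYC bin in kb on both axes. The dark blue corner in control siRNA, contacts across the edge at 127.82 Mb, is pale in CTCF siRNA, and the red blocks far from the diagonal are paler too.

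**Figure D4:**
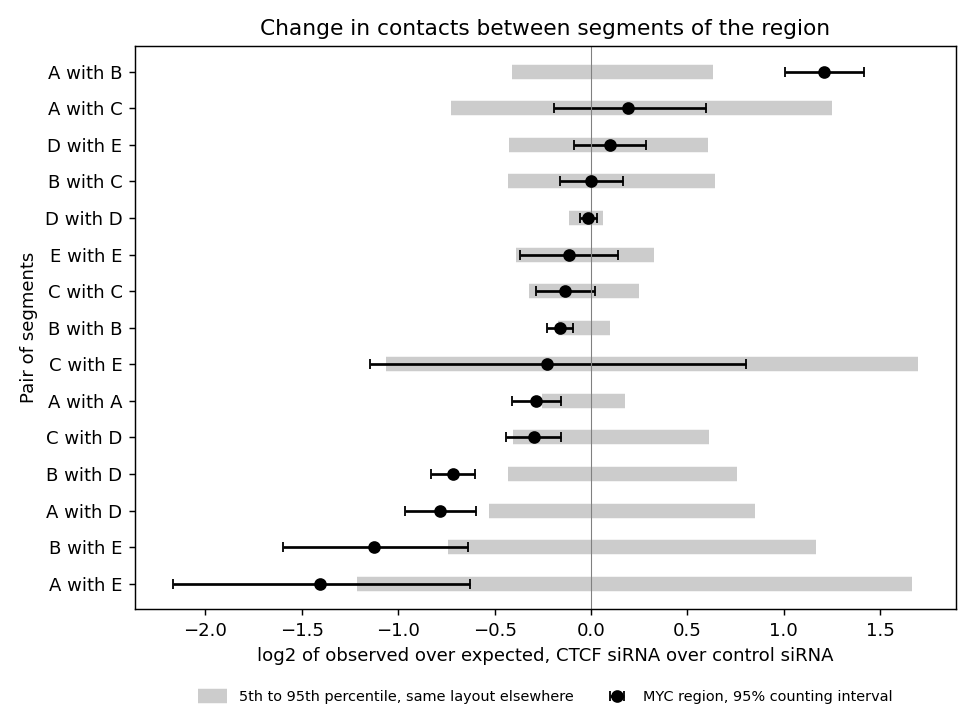
Change in observed over expected contacts (log2, CTCF siRNA over control siRNA) for the 15 pairs of segments A to E, with 95% counting intervals as bars. Grey bars span the 5th to 95th percentile of the same pair of segments at other autosomal positions, which were not chosen at TAD edges. A with B lies above its grey bar and A with A, B with D, A with D, B with E and A with E lie below theirs.

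The difference between the maps was greatest at the longest distances. Pairs of bins of the region 40 to 400 kb apart were at 0.946 of expectation in control and 0.918 in CTCF siRNA, and pairs 440 to 1000 kb apart at 1.08 and 1.03. At 1040 to 2000 kb the values were 1.55 (1.47 to 1.63) and 1.18 (1.15 to 1.22). At 2040 to 3480 kb they were 3.0 (578 contacts, 2.76 to 3.25) and 1.46 (1000 contacts, 1.37 to 1.55), a log2 change of -1.04 (-1.19 to -0.89). The interval lay below 0 in all 4 distance classes, as it did at 47.3%, 22.2%, 19.8% and 12.4% of placements elsewhere in order of distance. With all of chromosome 8 taken as deposited, the interval of the nearest class included 0, at -0.02 (-0.06 to 0.01). In the farthest class the control value lay at the 98.9th percentile of 10305 placements, and 10 placements fell by as much, while the median placement had 0.859 and 0.972. Without bias factors the change in the 2 nearer classes was 0.09 (0.05 to 0.13) and 0.06 (0.003 to 0.127), so that both were higher in CTCF siRNA, that at 1040 to 2000 kb was -0.18, and that in the farthest class -0.98. Without them the intervals of placements elsewhere lay above 0 for 40.5% and 40.6% in the nearer classes and below 0 for 40.9% and 27.2% in the farther ones. The region's median coverage over that of chromosome 8 was 1.11 in control and 1.28 in CTCF siRNA, and the part of coverage, cis share or copy number in these long-range values was not tested.

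The balance of upstream and downstream contacts within 2 Mb did not differ detectably for the member genes where bias factors were used. The log2 of downstream over upstream, each over expected, was 0.07 ± 0.18 for the MYC bin in control and -0.21 ± 0.08 in CTCF siRNA, a change of -0.28 ± 0.19. POU5F1B changed by -0.19 ± 0.11, PVT1 by -0.01 ± 0.05 and GSDMC by 0.06 ± 0.21. POU5F1B and PVT1 span several bins, and contacts between bins of the same gene entered on both sides. This draws their log2 values toward 0, and their SDs treat the sides as independent. Their changes therefore do not measure the balance outside the gene. With bias factors none of the 4 changes exceeded 2 counting SD. No share of placements elsewhere is given for this setting, so this is not read as a trait of these genes. Without them the PVT1 change was -0.17 ± 0.05, with an interval of -0.28 to -0.06, where 33.2% of placements also had an interval below 0, and the intervals of the other 3 included 0.

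Of 9975 protein-coding genes outside the region with enough expected contacts, those with the pattern most like MYC were HSDL1, SLC6A7, JRK, PPP1R7 and MEX3A. Likeness was the Euclidean distance over 4 log2 values, contacts 120 to 720 kb upstream and 40 to 400 kb downstream in each of the 2 maps. It was 0.06 for HSDL1 and SLC6A7, 0.09 for JRK and PPP1R7 and 0.10 for MEX3A, with a median of 0.99 over all genes compared. Counting error was not part of this distance. For MYC itself, observed over expected in control with the POU5F1B side, close to the upstream window, had an interval of 1.17 to 1.86 from 74 contacts. The order of genes at such small distances was therefore not resolved, and other genes may be as alike.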

How the data were processed

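Per the methods, the authors ran HiCUP, with Bowtie as aligner and hg19 as genome, tagged duplicates with Picard, pooled the libraries of a condition into 1 map of 40 kb bins, and called TADs with a hidden Markov model on a directionality index. The submitters' processing notes name Bowtie 1.1.0 and Picard 1.121. The deposited values are numbers of read pairs per pair of bins, whole and not scaled for depth, except at positions 9400001 to 48120000 of every chromosome, where they carry a correction factor. Those positions were left out of expected values and backgrounds, and the region lies outside them.

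The siRNA named in the labels set the group of each sample. Bins with at least 10% of the chromosome's median cis count in both maps were used. Expected contacts were the mean at each distance on chromosome 8 times bias factors from 100 rounds of iterative balancing. For insulation no bias factors were used, and at least 50% of bin pairs had to be usable. Intervals treat expected values as known. TAD edges facing each other within 100 kb counted as 1 boundary. A background value needed at least 1 contact expected in each map, except for pairs of member genes and for LRATD2 with the MYC bin, which needed none, and backgrounds cover the 21 autosomes with bins outside the positions left out. A gene entered the likeness ranking with at least 20 contacts expected per window. Gene positions came from GENCODE on GRCh37 and siRNA matches from its transcripts. Older names were updated through RefSeq, FAM84B to LRATD2 and TMEM75 to LINC02912, and CCAT1 was not matched. Genes named were the members, a list of other genes of the region, the 3 highest partner bins, the 3 lowest minima and the 3 largest rises and falls, and the 5 most alike genes. Members and lists were chosen with earlier results of these data known. Scripts used Python 3.11.15, numpy 2.4.6 and scipy 1.17.1 and were tested on simulated data. Alternatives were no bias factors, other expected values, windows, flanks and tolerances, and chromosome 8 with all values as deposited, which was chosen after seeing the data.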

Additional observations from a re-analysis of the deposited data

How the results depend on the processing

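No paired analysis was possible because 1 pooled map was deposited per condition, so leaving out a library was not possible either. Over 63 results and 248 alternatives, 214 values stayed within the counting interval of the value reported or, for shares, within 1.5 times of it. Many intervals were wide, so a value could stay within and still change its call or sign. With 1 bin on each side of the MYC bin, the change beyond PVT1 went from -1.06 to -0.37 (-0.76 to 0.03). That of the GSDMC end went from 0.43 to -0.87, and both counted as within. Another 29 values moved further, and for 5 a value whose interval had excluded 0 turned its sign. All 5 of these came without bias factors: A with A at 0.059, B with B at 0.019, C with D at 0.31, pairs 40 to 400 kb apart at 0.090 and pairs 440 to 1000 kb apart at 0.065, all as log2 changes. Without bias factors the log2 change also moved to 0.71 for the bins next to MYC, 0.54 for the PVT1 body, 0.46 for MYC with PVT1, 0.68 for POU5F1B with PVT1, 0.90 for A with C, 0.74 for B with C, 0.94 for C with C, -0.52 for B with D, -0.21 for D with D and -0.18 for pairs 1040 to 2000 kb apart, and the PVT1 direction change to -0.17. The cause was not tested. Values whose interval included 0 turned their sign in 18 cases over 15 results, 8 of them without bias factors and 5 with 1 bin on each side of the MYC bin, so that no direction is read from them. The insulation rise at 127.82 Mb was 1.32 with flanks of 800 kb. With boundaries that had to touch, 1 of the 4 CTCF siRNA boundaries was shared. Without bias factors the shares of autosomal bins with a higher and a lower value were 16.6% and 17.0% for the LRATD2 side, 25.4% and 31.4% for the POU5F1B side, 21.5% and 33.9% next to MYC, 23.1% and 32.8% for the PVT1 body, 10.7% and 12.1% for the middle of CCDC26, 2.84% and 5.64% for its start, 0.494% and 2.69% for the GSDMC end, and 24.7% lower beyond PVT1. On chromosome 8 alone 0.0473% were higher at the GSDMC end. Over all alternatives the change beyond PVT1 ranged from -1.10 to -0.37, that at the start of CCDC26 from -1.71 to -0.89, A with B from 1.21 to 1.39 and the edge at 129.02 Mb from -0.29 to -0.23. The control map, with 265 contacts of the MYC bin in the region against 1221, limits every comparison of single bins, and 22 of 87 partner bins had 0 contacts there.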
